A study of Mus musculus with 30 samples.

Results

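Fecal bacteria of mice given hydroxytyrosol on a high-fructose diet were compared with those of control mice, by sequencing of the bacterial 16S rRNA gene. The comparison used 12 of the 30 mice of the series, chosen by their labelled group, with 6 hydroxytyrosol and 6 control mice. All were female mice, C57BL/6 in the labels and C57BL/6J in the methods, labelled as 6 weeks old. Control mice ate the normal diet and were gavaged with saline. Hydroxytyrosol mice ate a diet with 60% fructose and were gavaged with 26 mg/kg hydroxytyrosol, a phenylethanoid also found in olives. A further 6 mice on the fructose diet with saline (model mice) are given where their values stand beside a result. Feeding lasted 8 weeks in the study's methods and 12 weeks in its figure legends. Diet and compound both differed between the 2 groups compared, so their parts cannot be told apart in this comparison. The labels name no cage, and mice sharing a cage exchange bacteria, so a group difference and a cage difference cannot be told apart either.

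The question was which bacterial families, genera and sequence variants still differed from control mice when hydroxytyrosol was given with fructose. In the mouse gut, most bacteria are strict anaerobes of the phyla Bacteroidetes and Firmicutes. S24-7, also called Muribaculaceae, is a family of Bacteroidetes that degrades plant and host glycans and is typical of the mouse. Lachnospiraceae, Ruminococcaceae and Erysipelotrichaceae are Firmicutes families whose members ferment carbohydrates to short-chain fatty acids. Akkermansia, of the phylum Verrucomicrobia, feeds on the mucin of the mucus layer. Acinetobacter and Planococcaceae such as Sporosarcina and Kurthia are aerobes that are common in soil, water and bedding. A sequence variant, or ASV, is a distinct 16S sequence left after read errors are removed, so that 1 genus can hold many of them. The deposited tables carry ASV identifiers and the read log lists a denoising step, but the study's methods speak of OTUs, which are clusters of similar sequences. The sources thus differ on whether a variant here is 1 sequence or a cluster. The share of a taxon is its percent of the counts of a mouse, and shares add to 100%, so a rise of 1 taxon lowers the shares of others.

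Hydroxytyrosol mice had 71930 to 101386 filtered counts and control mice 41862 to 83876, a difference in means with p = 0.0476 (two-sided exact permutation test, n = 6 a group). Counts for diversity were taken from the table with the even depth of 39768 counts per mouse. Within each group the mice differed widely in their leading genera. Acinetobacter led in hydroxytyrosol mouse 2 with 44.1% (95% Wilson interval 43.8 to 44.5), in control mouse 1 with 47.3% (46.9 to 47.7) and in control mouse 6 with 55.4% (55.1 to 55.7). Shigella, a genus that 16S reads hardly separate from Escherichia, led in hydroxytyrosol mouse 1 with 70.5% (70.3 to 70.8), in hydroxytyrosol mouse 6 with 47.3% (47.0 to 47.6) and in control mouse 5 with 21.2% (20.9 to 21.5). Jeotgalicoccus, a Gram-positive relative of Staphylococcus, led in hydroxytyrosol mouse 3 with 35.9% (35.6 to 36.2) and in hydroxytyrosol mouse 5 with 54.9% (54.6 to 55.3). Sporosarcina led in hydroxytyrosol mouse 4 with 43.1% (42.8 to 43.5). Unidentified S24-7 led in control mouse 4 with 35.8% (35.3 to 36.3), Lactobacillus in control mouse 3 with 36.2% (35.9 to 36.5) and unclassified Planococcaceae in control mouse 2 with 25.6% (25.3 to 25.9). These intervals cover counting error only, and the spread between mice was far larger. Counts of called taxa, diversity and distances are also given without the 3 mice that held over 40% Acinetobacter, which were chosen after the data were seen. Of 34 single taxa followed in that fit, 30 still passed.

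**Figure D1:**
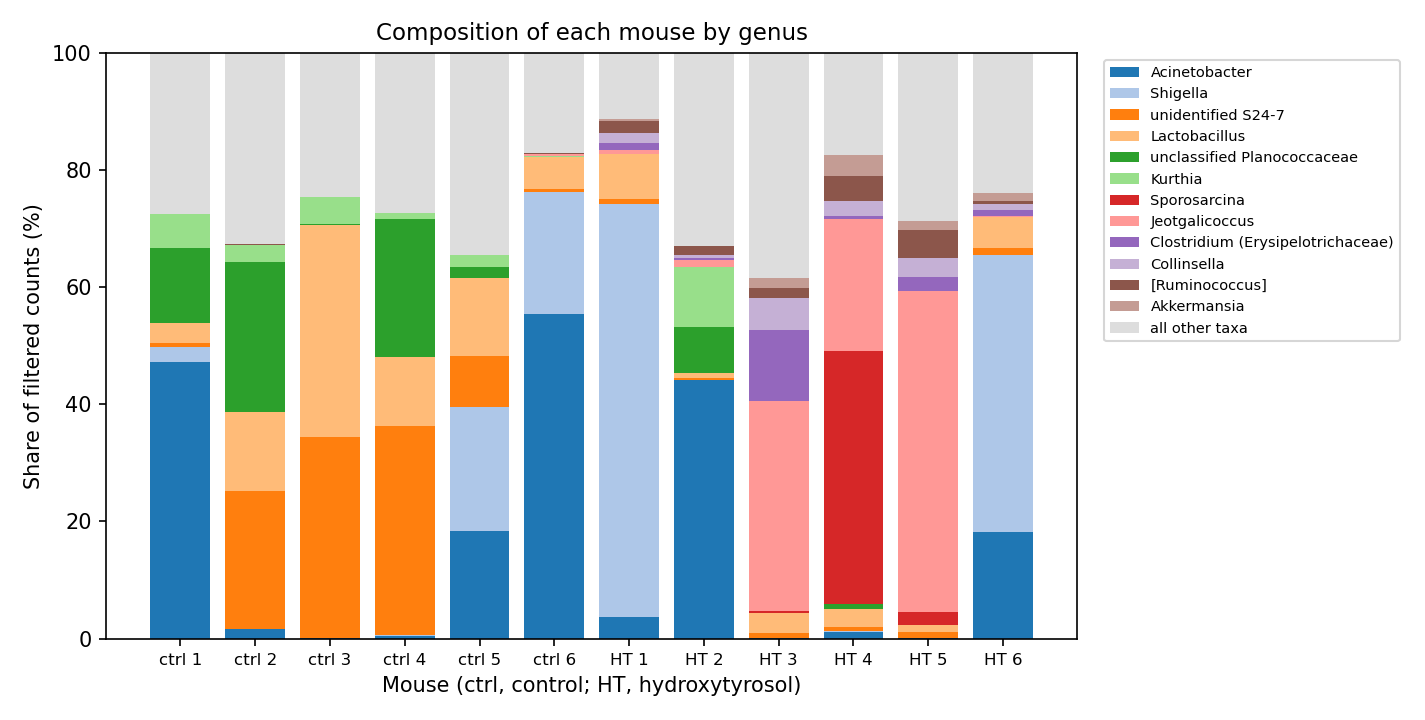
Stacked bars show the percent of filtered counts of 12 taxa at genus level in each of the 6 control (ctrl) and 6 hydroxytyrosol (HT) mice, with all other taxa in grey. S24-7 took 8.62% to 35.8% in control mice 2 to 5 and at most 1.2% in the hydroxytyrosol mice, and Collinsella, [Ruminococcus] and Akkermansia are visible in hydroxytyrosol mice only.

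At genus level, 96 genera reached 10 counts in 4 or more mice of the 12 and were tested with edgeR's quasi-likelihood test. Of these, 28 (29.2%) passed an adjusted p of 0.05, 15 higher and 13 lower in hydroxytyrosol mice. The 28 were unequally placed with respect to the filter. Of the 65 genera that reached 10 counts in 2 or more mice of each group, 6 passed. The other 22, 12 higher and 10 lower, came from 31 genera that reached the filter mostly through 1 group, which set their direction beforehand. When the fit was run on the 65 genera alone, 6 passed, the same 6. Without the 3 Acinetobacter-led mice 31 of 82 genera passed, 19 higher and 12 lower, and 22 of them were among the 28. Without control mouse 6, 43 genera passed.

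Genera of the families Coriobacteriaceae and Erysipelotrichaceae, anaerobes that use sugars and modify bile acids, were among the clearest rises. Collinsella took a share of 0.512% in the lowest hydroxytyrosol mouse, 2.06% at the median and 5.44% in the highest. In control mice it was found with 3 counts in control mouse 6 and with none in the other 5. The groups did not overlap, the ratio of the mean counts per depth was 3570 with a counting interval of 1221 to 17315, and the adjusted p was 0.00105. Clostridium of the Erysipelotrichaceae took 0.441% to 12.1% (median 1.15%) in hydroxytyrosol mice and 0% to 0.0378% (median 0.00494%) in control mice, again without overlap, with a log2 fold change of 8.27 (SE 1.72, adjusted p = 0.00232). [Eubacterium], of the same family, took 0.00278% to 6.75% (median 0.110%) against 0% to 0.00717% (median 0.00298%), with a log2 fold change of 8.68 (SE 1.98, adjusted p = 0.00422). Here the groups overlapped, since 4 control mice held a few counts and hydroxytyrosol mouse 2 held about as little. Unidentified Coriobacteriaceae moved the other way. They held 0% to 0.540% (median 0.264%) in control mice and 3 counts in a single hydroxytyrosol mouse, a ratio of 436 (counting interval 149 to 2119) in favour of control mice (adjusted p = 0.00325). Of the 6 named genera tested in the list of both families, which leaves out unidentified members, 3 were higher and none lower, beside 15 higher of the 96 genera tested. The list's median log2 fold change was 5.00, against -0.30 over all genera. The 3 called had reached the filter mostly through hydroxytyrosol mice, so their direction was fixed by it. The 3 genera not past the threshold included Allobaculum, at 0.953% ± 1.10 in hydroxytyrosol and 0.700% ± 1.22 in control mice (SD, n = 6 each; medians 0.544% and 0.204%), and Adlercreutzia, which metabolises plant polyphenols, at 0.0669% ± 0.0315 and 0.649% ± 0.523.

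Akkermansia was found in all 6 hydroxytyrosol mice, at 0.0389%, 0.333%, 1.25%, 1.60%, 1.74% and 3.57% of counts, and had no count in any control mouse. Its share was at least 321-fold higher than the 3 counts per mouse that a count of 0 allows (adjusted p = 0.00105). Of its 7546 counts, 7541 came from 1 ASV, ASV_7902, assigned to Akkermansia muciniphila. No other listed mucus-associated genus passed in the higher direction. Mucispirillum held 0.290% ± 0.522 in hydroxytyrosol and 0.0104% ± 0.0166 in control mice (medians 0.0239% and 0.00377%, log2 fold change 3.71, SE 1.92, adjusted p = 0.163), and its 1 tested ASV, ASV_77440, was called higher, with counts in 4 hydroxytyrosol mice and no control mouse, so that it reached the filter through hydroxytyrosol mice alone (edgeR, adjusted p = 0.00214). Desulfovibrio, which reduces sulfate, held 0.156% ± 0.126 and 0.548% ± 0.763 (medians 0.120% and 0.119%, adjusted p = 0.685). Unclassified Helicobacteraceae, relatives of the mucus-dwelling Helicobacter, had no count in any hydroxytyrosol mouse and 0.0792% to 1.61% (median 0.643%) in control mice. Their share was at least 192-fold lower in hydroxytyrosol mice (adjusted p = 0.00105). Helicobacter itself held 0.0758% ± 0.0479 against 0.456% ± 0.438 and missed the threshold (adjusted p = 0.0585).

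Genera of other families were called in both directions. [Ruminococcus], a genus of Lachnospiraceae that includes mucin degraders, took 0.552% to 4.73% (median 1.84%) in hydroxytyrosol mice and 0% to 0.170% (median 0.0322%) in control mice, without overlap (log2 fold change 4.87, SE 1.61, adjusted p = 0.0316), a call that ended without control mouse 3. Ruminococcus, a genus of Ruminococcaceae with a similar name that includes fibre degraders, was lower, at 0.0187% to 0.0744% (median 0.0457%) against 0.00717% to 1.80% (median 0.817%). Its log2 fold change was -3.31 (SE 1.04, adjusted p = 0.0252), and the groups overlapped through control mice 1 and 6. Its call ended without control mouse 3, hydroxytyrosol mouse 3 or hydroxytyrosol mouse 6 (adjusted p = 0.0505, 0.0560 and 0.0630). Subdoligranulum, a butyrate producer, took 0.0348% to 0.129% in hydroxytyrosol mice, and control mice held 1 count in all, a ratio of 322 (counting interval 57.4 to 12740; adjusted p = 0.000828). Pseudoramibacter Eubacterium took 0.00556% to 0.432% (median 0.0386%) against 3 counts in 1 control mouse, a ratio of 159 (counting interval 54.2 to 774; adjusted p = 0.00232). Unclassified Enterococcaceae, facultative lactic acid bacteria, took 0.124% to 5.66% (median 0.389%) against 0% to 0.0675% (median 0.00239%), without overlap (log2 fold change 7.35, SE 1.85, adjusted p = 0.00796). Unidentified Desulfovibrionaceae, sulfate reducers, were measured in all 12 mice. They took 0.487% to 4.64% (median 1.37%) in hydroxytyrosol and 0.00956% to 0.275% (median 0.119%) in control mice, without overlap (log2 fold change 4.23, SE 1.15, adjusted p = 0.0107). Clostridium of the Lachnospiraceae, Dorea and unidentified [Mogibacteriaceae] were also called higher, at mean shares of 0.0684%, 0.0919% and 0.277% in hydroxytyrosol mice.

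Jeotgalicoccus, found on skin and in litter, took 0.173%, 0.622%, 1.13%, 22.5%, 35.9% and 54.9% in hydroxytyrosol mice and 0% to 0.375% (median 0.0209%) in control mice. The groups overlapped through control mouse 6, and the log2 fold change was 6.58 (SE 2.20, adjusted p = 0.0327). Without control mouse 3 the adjusted p of Jeotgalicoccus was 0.0577. Atopostipes, a facultative anaerobe known from manure, was found in 5 hydroxytyrosol mice at up to 8.15% (median 0.0256%) and in no control mouse, a share at least 339-fold higher (adjusted p = 0.00796). That mean rested on hydroxytyrosol mouse 5, without which the bound was 39.6-fold. Of 8 tested genera on the list of skin and litter Gram-positives these were the 2 called, beside 15 of 96 called higher over all genera, and the list summed to 3.12% to 64.8% (median 16.8%) in hydroxytyrosol mice and 1.53% to 7.87% (median 4.81%) in control mice. Staphylococcus did not pass, at 2.98% ± 2.24 and 2.56% ± 2.77. None of 11 tested aerobic or environmental genera passed at an adjusted p of 0.05 in edgeR, beside 28 of 96 (29.2%) over all genera, and 2 had an unadjusted p under 0.05. The sum over all 23 genera of that list, untested ones such as Sporosarcina included, was 2.56% to 61.8% in hydroxytyrosol and 1.67% to 57.0% in control mice. Within it Acinetobacter held 0.0312% to 44.1% (median 2.44%) and 0.0453% to 55.4% (median 9.98%), with an adjusted p of 0.508. Sporosarcina, not tested because too few mice held it, took 43.1%, 2.19%, 0.335% and 0.00395% in 4 hydroxytyrosol mice and had no count in the other 2 or in any control mouse. Kurthia had 10.3% in hydroxytyrosol mouse 2, at most 0.00503% in the other 5, and 0.0789% to 5.75% in control mice (adjusted p = 0.788).

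Among the genera called lower, Rikenella, a Bacteroidetes anaerobe of the gut, had no count in any hydroxytyrosol mouse and 0.269% to 0.640% in 5 control mice. Its share was at least 97.3-fold lower (adjusted p = 0.00231), and control mouse 6 also had none. Prevotella, which degrades plant polysaccharides, held 0% to 1.21% (median 0.198%) in control mice and was found in 2 hydroxytyrosol mice, at most at 0.0189% (log2 fold change -5.87, SE 1.88, adjusted p = 0.0261). Without hydroxytyrosol mouse 6 the adjusted p of Prevotella was 0.0530. Clostridium of the Clostridiaceae held 0.00554% to 0.265% (median 0.0895%) in control mice and at most 0.00789% in hydroxytyrosol mice (log2 fold change -4.99, SE 1.45, adjusted p = 0.0158). Unidentified RF39, of the cell-wall-free Tenericutes, had no count in hydroxytyrosol mice and up to 0.0784% in control mice, a share at least 9.95-fold lower (adjusted p = 0.00837). Unidentified F16, of the candidate phylum TM7, held 0.180% ± 0.228 in control and 0.000831% ± 0.00133 in hydroxytyrosol mice (log2 fold change -6.39, SE 1.63, adjusted p = 0.00796). Unidentified Veillonellaceae, unidentified Planococcaceae and unclassified Lactobacillaceae also fell. The call of unidentified Planococcaceae ended without hydroxytyrosol mouse 3 or 6 (adjusted p = 0.0553 and 0.0724). Unclassified Lactobacillaceae did not overlap between the groups, at 0.00835% to 0.0513% in control mice against at most 0.00278%. Butyricimonas, also of the Bacteroidetes and a butyrate producer, was the exception in direction. It was found in all 6 hydroxytyrosol mice at 0.00709% to 0.143% and in no control mouse, a share at least 11.4-fold higher (adjusted p = 0.00231), or 7.25-fold without hydroxytyrosol mouse 3.

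**Figure D2:**
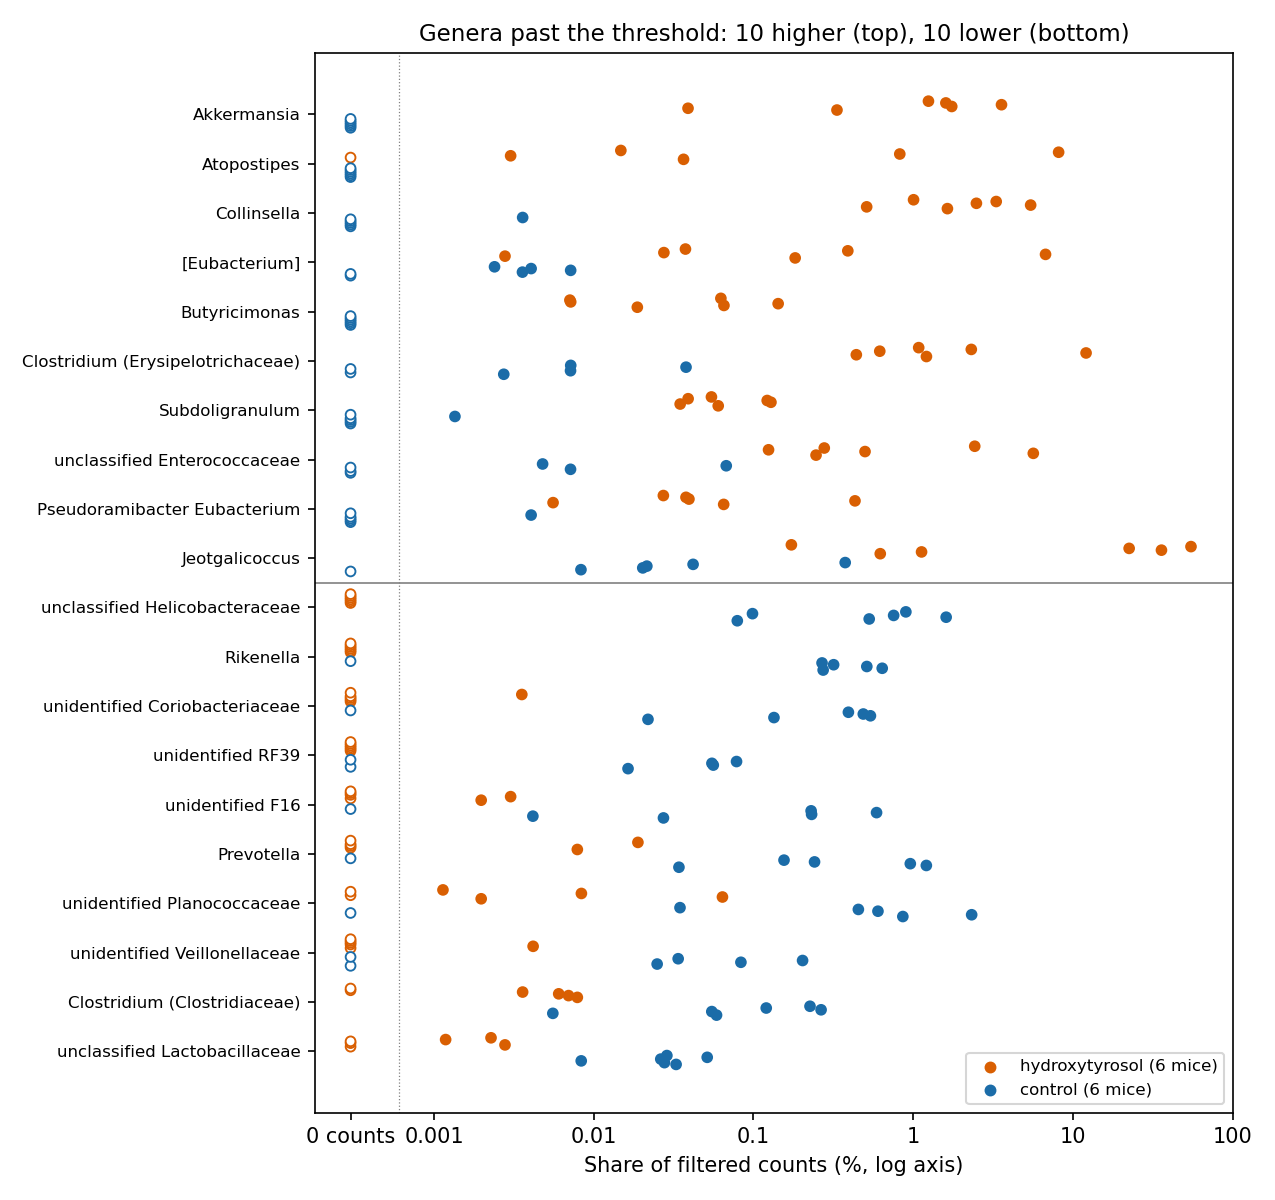
Each point is the share of filtered counts of 1 genus in 1 mouse, on a log axis in percent, with open points left of the dotted line for mice with 0 counts. The 10 genera with the largest fitted rise stand above the line and the 10 with the largest fitted fall below it; Akkermansia was in all 6 hydroxytyrosol and no control mouse, and unclassified Helicobacteraceae in all 6 control and no hydroxytyrosol mouse.

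Lactobacillus, the most abundant of the lactic acid bacteria, took 0.962% to 7.71% (median 3.21%) in hydroxytyrosol mice and 3.39% to 36.2% (median 12.6%) in control mice, with the hydroxytyrosol mouse higher in 3 of the 36 pairs, but did not pass (log2 fold change -1.31, SE 1.13, adjusted p = 0.401). Of the 6 genera tested on the list of lactic acid bacteria 1 passed, beside 28 of 96 (29.2%) over all genera. It was Lactococcus, at 0.0294% ± 0.0203 against 0.474% ± 0.912 (log2 fold change -3.71, SE 1.28, adjusted p = 0.0357). The control mean rested on control mouse 2 (2.33%), without which it was 0.104%, and the 1 tested ASV of Lactococcus, ASV_84384, was called higher in hydroxytyrosol mice (adjusted p = 0.0434). Enterococcus held 0.838% ± 0.881 and 0.294% ± 0.635 (medians 0.573% and 0.0373%, adjusted p = 0.329). Of the Enterobacteriaceae, Shigella held 0.00139% to 70.5% (median 0.0760%) in hydroxytyrosol mice and 0.00970% to 21.2% (median 1.26%) in control mice. Its mean was higher and its median lower in hydroxytyrosol mice, and it did not pass (adjusted p = 0.722). Unclassified Enterobacteriaceae held 0.109% ± 0.108 against 3.69% ± 7.13, and did not pass (log2 fold change -5.29, SE 1.97, adjusted p = 0.0530). Their control mean rested on control mouse 1 (18.2%), without which it was 0.795%. Neither of the 2 named genera of the family that were tested passed. Plant plastid reads came to 7 counts in all, from 2 hydroxytyrosol mice.

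At family level, 13 of 52 families (25.0%) passed, 7 higher and 6 lower. Without TMM scaling the split was 4 higher and 6 lower, and with singleton pairing 10 and 6. Without control mouse 1, 8 families passed, and without control mouse 3, 6. When only the 43 families that reached 10 counts in 2 or more mice of each group were fitted, none passed in edgeR, while 13 had an unadjusted p under 0.05. In the full fit 5 of those 43 were called, namely Helicobacteraceae, S24-7, Enterococcaceae, unclassified Lactobacillales and Bacillaceae, and each had an adjusted p of 0.0852 when the 43 were fitted alone. Their log2 fold changes moved little between the fits, from -3.80 to -3.73 for S24-7, -3.51 to -3.34 for Helicobacteraceae, 3.36 to 3.23 for Bacillaceae, 2.90 to 2.59 for unclassified Lactobacillales and 4.29 to 3.71 for Enterococcaceae. The median log2 fold change over all families was 0.14 with TMM, -0.36 without it and -0.77 in DESeq2, so changes near that size have no fixed direction.

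Bacteroidales families, the main glycan degraders of the gut, held 1.01% to 3.27% (median 1.39%) together in hydroxytyrosol mice and 0.405% to 39.5% (median 23.4%) in control mice. Of the 7 families tested 2 were lower and none higher, a share called near the 13 of 52 over all families, with a median log2 fold change of -2.57, against 0.14 over all families. S24-7 averaged 17.2% in control mice, where the sum averaged 21.2%, and 0.843% in hydroxytyrosol mice, where the sum averaged 1.73%. It took 0.331%, 0.735%, 0.846%, 0.958%, 0.985% and 1.2% in hydroxytyrosol mice. In control mice 1 to 6 it took 0.686%, 23.6%, 34.3%, 35.8%, 8.62% and 0.374%. Control mice 2 to 5 therefore lay above every hydroxytyrosol mouse, and control mice 1 and 6, both led by Acinetobacter, lay within the hydroxytyrosol range. The log2 fold change was -3.80 (SE 1.16, adjusted p = 0.0243), and leaving out control mouse 3, hydroxytyrosol mouse 2 or hydroxytyrosol mouse 4 ended the call. The call also ended without the filter on low counts (log2 fold change -3.51, edgeR adjusted p = 0.0631). Without the 3 Acinetobacter-led mice the log2 fold change of S24-7 was -3.91 (adjusted p = 0.0118). These include control mice 1 and 6, which lay within the hydroxytyrosol range. Prevotellaceae fell with Prevotella (log2 fold change -5.87, SE 1.80, adjusted p = 0.0243), and its call ended without control mouse 3 or hydroxytyrosol mouse 4. Bacteroidaceae held 0.230% ± 0.0703 and 1.52% ± 3.09 (adjusted p = 0.238). The control mean of Bacteroidaceae rested on control mouse 2 (7.80%), without which it was 0.260%, and the medians were 0.212% and 0.230%. Rikenellaceae held 0.0717% ± 0.0412 and 0.627% ± 0.441 (adjusted p = 0.0927).

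Of 8 Clostridiales families tested 3 were higher and 1 lower, beside 7 and 6 of all 52, with a median log2 fold change of 1.38. The 4 called had each reached the filter mostly through 1 group. Christensenellaceae, a family often associated with leanness, had 0.0187% to 0.0454% (median 0.0281%) in hydroxytyrosol mice and no count in control mice, a share at least 6.41-fold higher (adjusted p = 0.000577). [Mogibacteriaceae] took 0.0573% to 0.802% (median 0.143%) against 0% to 0.0155% (median 0.00883%), without overlap (log2 fold change 5.66, SE 1.31, adjusted p = 0.00610). Eubacteriaceae took 0.00556% to 0.516% (median 0.0445%), and 1 control mouse held 0.0108% and the other 5 none (log2 fold change 6.99, SE 1.52, adjusted p = 0.00451). The lower family was Clostridiaceae, at 0% to 0.00789% (median 0.00481%) against 0.00554% to 0.270% (median 0.0952%), with overlap through control mouse 2 (log2 fold change -4.30, SE 1.29, adjusted p = 0.0243). Without hydroxytyrosol mouse 4 its adjusted p was 0.0515. Lachnospiraceae, the largest of these families in hydroxytyrosol mice, held 3.94% ± 2.53 and 1.03% ± 1.40 (medians 3.25% and 0.616%) and did not pass (log2 fold change 2.42, adjusted p = 0.0751). Ruminococcaceae held 1.43% ± 0.506 and 1.68% ± 1.53 (adjusted p = 0.769). Outside this order, Verrucomicrobiaceae, whose counts were those of Akkermansia, had the largest fitted rise of the 52 families (at least 321-fold higher, adjusted p = 0.000215). F16 (log2 fold change -6.88, SE 1.75, adjusted p = 0.0116) and unidentified RF39 (at least 9.95-fold lower, adjusted p = 0.0131) were lower at this level as well. Helicobacteraceae held 0.0231% to 0.146% (median 0.0560%) against 0.171% to 2.19% (median 1.01%), without overlap (log2 fold change -3.51, SE 0.96, adjusted p = 0.0149). Enterococcaceae took 0.161% to 7.32% (median 0.963%) against 0% to 1.69% (median 0.0714%), with overlap through control mouse 5 (log2 fold change 4.29, SE 1.36, adjusted p = 0.0276). Bacillaceae (log2 fold change 3.36, SE 1.15, adjusted p = 0.0388) and unclassified Lactobacillales (log2 fold change 2.90, SE 0.95, adjusted p = 0.0309) were the least stable rises. Each missed the threshold without control mouse 1, 2, 3 or 4, without hydroxytyrosol mouse 2 and without TMM. Bacillaceae also missed it without hydroxytyrosol mouse 4 or 5, and unclassified Lactobacillales without hydroxytyrosol mouse 6. The call of Enterococcaceae ended without control mouse 1, 2 or 3, without hydroxytyrosol mouse 2 and without TMM (adjusted p = 0.0536 to 0.161), and its log2 fold change was 1.46 without the 3 Acinetobacter-led mice (adjusted p = 0.521). Without those 3 mice unclassified Lactobacillales stood at 0.72 (adjusted p = 0.631), Bacillaceae at 2.41 (adjusted p = 0.296) and Helicobacteraceae at -2.45 (adjusted p = 0.0617), all on the log2 scale.

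Of 281 ASVs tested 168 (59.8%) passed, 58 higher and 110 lower, and with centred log-ratios 84 were higher and 104 lower. Of the 168, 97 had no count in any hydroxytyrosol mouse and 46 no count in any control mouse. These ASVs had reached the filter through 1 group alone, so their count is a description of which variants were absent and not a measure of how many genera changed. Of the 68 ASVs that reached 10 counts in 2 or more mice of each group 1 passed, ASV_48019, assigned to Jeotgalicoccus psychrophilus. It was the same ASV when those 68 were fitted alone. ASV_48019 held 0.156% to 50.6% (median 11.2%) in hydroxytyrosol and 0% to 0.224% (median 0.0173%) in control mice (log2 fold change 8.36, SE 2.64, adjusted p = 0.00630). Without the filter on low counts its adjusted p in edgeR was 0.0779. The number called fell to 98, 101, 91 and 92 when control mouse 2, 3, 4 or 5 was left out, with 192 to 205 ASVs then reaching the filter.

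S24-7 supplied 55 of the 110 lower ASVs, out of 68 tested, and none of the higher ones, and 49 of the 68 had no count in any hydroxytyrosol mouse. Over the whole filtered table, 1540 S24-7 ASVs had counts in these mice, of which 1471 were found in control mice only and 34 in hydroxytyrosol mice only. Over all ASVs at even depth, 4187 of 6726 were in control mice only, 2182 in hydroxytyrosol mice only and 5158 in exactly 1 mouse. At that depth control mice 1 and 6 held 41 and 21 S24-7 ASVs, and control mice 2 to 5 held 217 to 667. In other families ASVs were called in both directions while the family's sum did not pass. Their counts stand beside 59.8% called over all ASVs, and nearly all rest on ASVs that reached the filter through 1 group. Coriobacteriaceae had 3 ASVs higher and 10 lower of 16 tested, Lactobacillaceae 3 and 10 of 19, Ruminococcaceae 6 and 4 of 20 and [Odoribacteraceae] 4 and 2 of 7. Within single genera the same was seen. Lactobacillus had 3 higher and 10 lower of 19, Adlercreutzia 2 and 7 of 12, Oscillospira, a slow-growing relative of Ruminococcus, 4 and 1 of 13, and Odoribacter 3 and 2 of 6, none of them called as a genus. The 6 tested ASVs of Erysipelotrichaceae were called higher, but 5 of them had no control count, and together they held 0.00139% of control counts where the family held 1.24%. The sum of Erysipelotrichaceae, at 5.22% ± 7.21 and 1.24% ± 1.52 (medians 2.84% and 0.839%), did not pass (log2 fold change 2.87, SE 1.27, adjusted p = 0.0974). Of 12 tested ASVs of Lachnospiraceae 8 were called higher and 1 lower, and of 9 of Enterococcaceae 6 higher and none lower, with 5 and 6 ASVs of these families at 0 in control mice. All 5 called ASVs of Enterobacteriaceae were lower, from unclassified Enterobacteriaceae and not from Shigella, whose 2 tested ASVs did not pass.

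**Figure D3:**
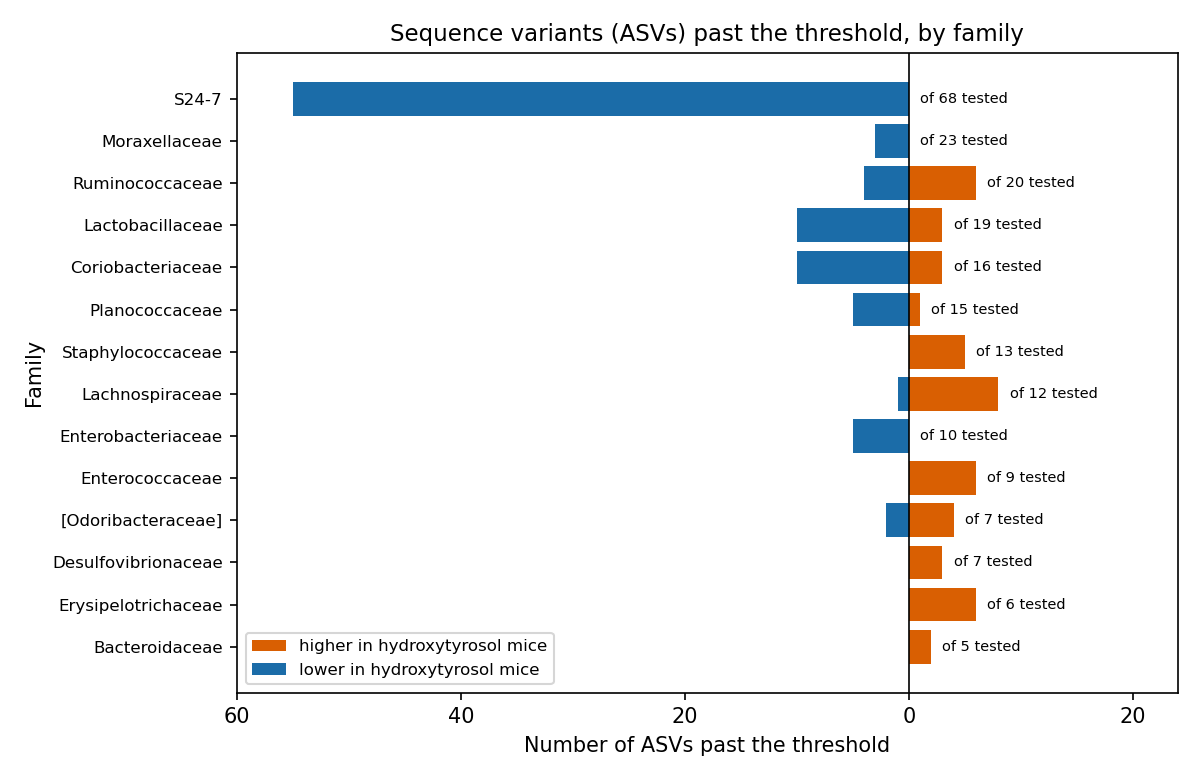
Bars count the ASVs past the threshold in each of the 14 families with the most tested ASVs, higher in hydroxytyrosol mice to the right and lower to the left, with the number tested beside each bar. S24-7 had 55 lower and 0 higher of 68, and Erysipelotrichaceae 6 higher and 0 lower of 6.

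Among single ASVs, the 5 with the largest fitted rise had no count in control mice. They were ASV_7902 of Akkermansia muciniphila at 0.0389% to 3.57% (median 1.42%), ASV_90254 of [Eubacterium] dolichum at 0.00278% to 6.59% (median 0.110%), ASV_13600 of Allobaculum at 0.0125% to 1.39% (median 0.330%), ASV_44518 of Enterococcus at 0.0287% to 1.63% (median 0.338%) and ASV_81202 of unclassified Enterococcaceae at 0.0215% to 2.11% (median 0.114%). Each was in all 6 hydroxytyrosol mice, and their shares were at least 320-fold, 269-fold, 114-fold, 131-fold and 125-fold higher in that order (adjusted p = 0.00214 for each in edgeR). Leaving out 1 mouse lowered some of these bounds by over 1.5 times, to 26.1-fold for ASV_90254 without hydroxytyrosol mouse 3, 54.7-fold for ASV_81202 without mouse 2, 74.2-fold for ASV_13600 without mouse 1 and 83.8-fold for ASV_44518 without mouse 6. The 5 with the largest fitted fall had no count in hydroxytyrosol mice. ASV_11856 of S24-7 was in all 6 control mice at 0.0191% to 5.16% (median 1.04%), a share at least 476-fold lower, or 272-fold without control mouse 3. ASV_83170 of Lactobacillus helveticus was in 5 control mice at up to 2.46% (median 0.655%), at least 256-fold lower, or 165-fold without control mouse 2. ASV_61181, ASV_30283 and ASV_11103, all of unclassified Enterobacteriaceae, were in 4 control mice, with their highest share in control mouse 1, and were at least 246-fold, 209-fold and 165-fold lower. Without control mouse 1 these bounds were 40.5-fold, 35.5-fold and 22.2-fold. Without the filter on low counts all ASVs named in this paragraph missed the threshold in edgeR (adjusted p = 0.0779 for each).

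The ASVs with the largest mean share over the 12 mice mostly did not pass. ASV_74633 of Shigella held 52.0% in the highest hydroxytyrosol mouse and 14.6% in the highest control mouse (medians 0.0624% and 0.627%, adjusted p = 0.535), and ASV_5205, also of Shigella, 13.4% and 6.93% (adjusted p = 0.707). ASV_14106 of Acinetobacter lwoffii held medians of 1.63% and 0.570% (adjusted p = 0.966), ASV_74631 of Staphylococcus sciuri 2.26% and 1.17% (adjusted p = 0.918), ASV_22018 of Lactobacillus 1.11% and 3.53% (adjusted p = 0.719) and ASV_75238 of Aerococcus 0.385% and 0.878% (adjusted p = 0.719). ASV_45355 of unclassified Planococcaceae was in 4 control mice at up to 21.9% and in hydroxytyrosol mouse 2 alone at 3.97% (adjusted p = 0.224). ASV_73525 of Lactobacillus held medians of 0.208% and 1.07% (adjusted p = 0.0946). ASV_15844 of Sporosarcina, held by 3 hydroxytyrosol mice at up to 34.1% and by no control mouse, was not tested.

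At even depth, 6726 ASVs were counted in the 12 mice. Of these, 357 were found in both groups, 2182 in hydroxytyrosol mice only and 4187 in control mice only, and 5158 in exactly 1 mouse. The 357 shared ASVs held 72.8% of the hydroxytyrosol counts and 59.7% of the control counts. In all 12 mice 8 ASVs were found, 20 were in all 6 hydroxytyrosol mice and no control mouse, and 6 in all 6 control mice and no hydroxytyrosol mouse. A pair of hydroxytyrosol mice shared 102 to 172 ASVs (median 132), a pair of control mice 64 to 436 (median 220) and a mouse of each group 27 to 141 (median 56.5).

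Counted over ASVs, 5 indices of richness and evenness were lower in hydroxytyrosol mice. The Shannon index, which combines number and evenness, was 3.32 to 5.77 (median 4.39) in hydroxytyrosol mice and 5.45 to 6.88 (median 6.29) in control mice. The means were 4.43 ± 0.798 and 6.25 ± 0.461 (SD, n = 6 each; two-sided exact permutation p = 0.00433, adjusted over the 6 indices p = 0.00866). Only hydroxytyrosol mouse 2 reached above the lowest control mouse. Observed ASVs were 470, 881, 456, 610, 595 and 506 in hydroxytyrosol mice 1 to 6 and 899, 1259, 1239, 1020, 1320 and 879 in control mice 1 to 6. The highest hydroxytyrosol mouse passed the lowest control mouse by 2 ASVs, and the difference in means was -516 (exact permutation p = 0.00433, adjusted p = 0.00866). Chao1, an estimate of richness that adds unseen variants, was 713 ± 180 and 1316 ± 298 (SD, n = 6 each; exact permutation p = 0.00649, adjusted p = 0.00974). The Simpson index was 0.825 ± 0.0877 and 0.939 ± 0.0235 (exact permutation p = 0.00866, adjusted p = 0.0104), and Pielou evenness 0.482 ± 0.0722 and 0.619 ± 0.0358 (exact permutation p = 0.00433, adjusted p = 0.00866). Good's coverage, the share of counts not in singletons, was 0.996 ± 0.00119 and 0.992 ± 0.00274 (exact permutation p = 0.0216, adjusted p = 0.0216). Without the 3 Acinetobacter-led mice, the 6 measures passed with an exact p of 0.0159, the smallest that this two-sided test allows with 5 against 4 mice.

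At genus level none of the 6 indices passed after adjustment. Hydroxytyrosol mice held 103 to 136 observed genera (median 118.5) and control mice 98 to 112 (median 106), a mean of 119 ± 11.8 against 105 ± 5.98 (exact permutation p = 0.0303, adjusted over the 6 genus-level indices p = 0.0909, n = 6 a group). Their Shannon index over genera differed by -0.0376 (exact permutation p = 0.900). The families with the largest differences in ASV number were read from the counts per mouse. S24-7 alone held 13 to 25 ASVs (median 19.0) in hydroxytyrosol mice. In control mice 1 to 6 it held 41, 621, 667, 503, 217 and 21. The mean difference for S24-7 was -326 ASVs, and for Moraxellaceae, the family of Acinetobacter, -121, of a total of -516. Moraxellaceae held 353, 52, 6, 12, 176 and 411 ASVs in control mice 1 to 6 and 5 to 174 in hydroxytyrosol mice. Its difference therefore rested on control mice 1, 5 and 6, and the groups overlapped. Lactobacillaceae differed by -41.5 and Enterobacteriaceae by -33.3, while Staphylococcaceae differed by 31.8, Lachnospiraceae by 18.2 and Enterococcaceae by 14.7 in the other direction. Enterobacteriaceae held 133, 2, 12, 20, 101 and 106 ASVs in control mice 1 to 6 and 2 to 81 in hydroxytyrosol mice, so the groups overlapped. With S24-7 left out, observed ASVs were 567 ± 161 and 758 ± 222 (exact permutation p = 0.106, n = 6 a group) and Chao1 did not pass either (p = 0.208). The Shannon index still passed, at 4.37 ± 0.813 and 5.55 ± 0.649 (exact permutation p = 0.0195). So did Pielou evenness, at 0.478 ± 0.0732 and 0.582 ± 0.0467 (exact permutation p = 0.0173). With Moraxellaceae left out too, observed ASVs were 520 ± 113 and 589 ± 173 (exact permutation p = 0.491). Both families were picked for their differences in these data, so smaller differences without them were built in. Depth was not evened again after they were left out. S24-7 had held 8.62% to 35.8% of filtered counts in control mice 2 to 5, and at most 1.2% in hydroxytyrosol mice. These tests therefore cannot decide how much of the difference these families account for. The share of merged reads that the authors' filters removed as chimeras was 26.03% in hydroxytyrosol and 34.7% in control mice (exact permutation p = 0.0931, n = 6 a group), and its part in the ASV counts was not tested.

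**Figure D4:**
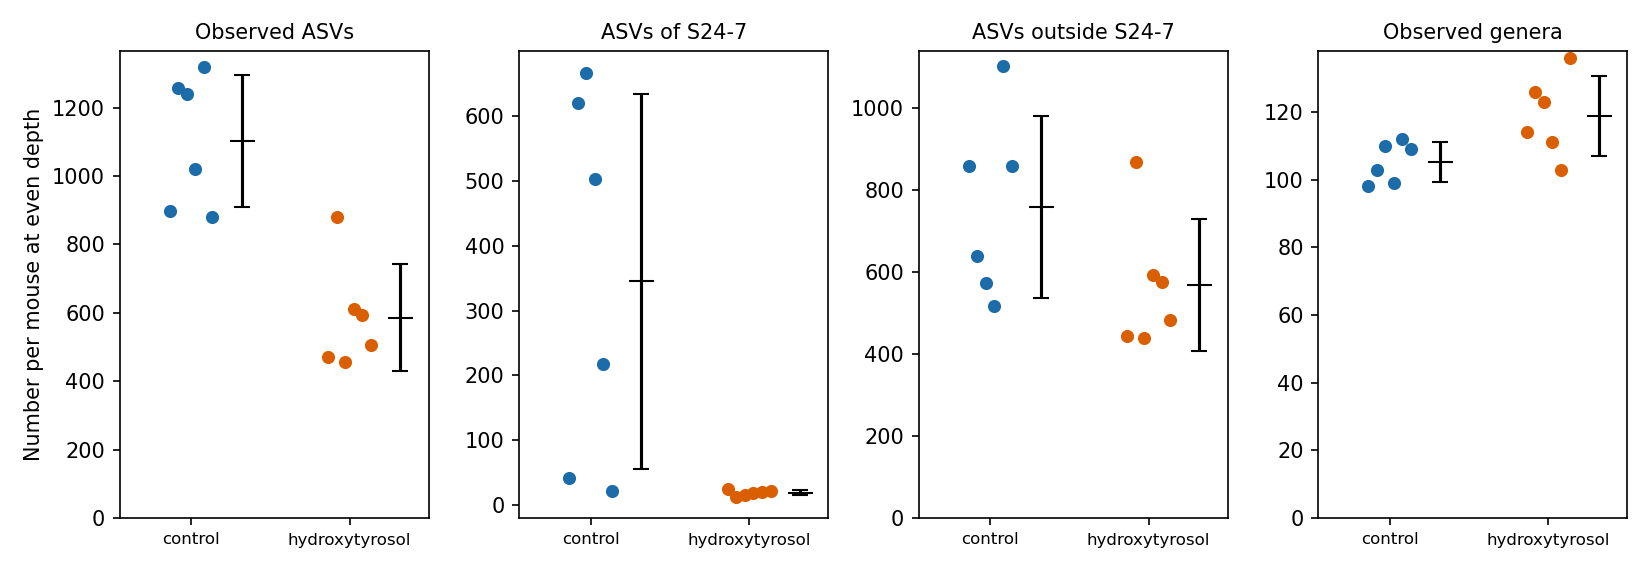
Points give, for each of the 6 control and 6 hydroxytyrosol mice at even depth, the number of ASVs, of S24-7 ASVs, of ASVs outside S24-7 and of genera, with the mean and SD beside them. For ASVs outside S24-7 the depth was not evened again. Observed ASVs averaged 586 against 1103 and observed genera 119 against 105, and S24-7 ASVs numbered at most 25 in hydroxytyrosol mice.

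Group explained 22.1% of the Bray-Curtis distances between the 12 mice (R2 = 0.221, exact permutation p = 0.00649, n = 6 a group). Without the 3 Acinetobacter-led mice R2 was 0.343 (exact permutation p = 0.00794, the smallest that 5 against 4 mice allow). The 3 were chosen from these data and include the closest pair between the groups, so this rise is not independent support. The mean distance was 0.773 within hydroxytyrosol mice, 0.774 within control mice and 0.894 between the groups, on a scale from 0 for identical to 1 for no shared ASV. The mean distance to the group centroid was 0.509 ± 0.0427 and 0.502 ± 0.0685 (exact permutation p = 0.816, n = 6 a group), so no difference in spread was detected. Hydroxytyrosol mice 1 and 6, led by Shigella, were 0.362 apart, the shortest distance of all within that group, and mice 3, 4 and 5, each with at least 22.5% Jeotgalicoccus, were each nearest to another of the 3. Hydroxytyrosol mouse 2 was nearest to control mouse 6 (0.597), the shortest distance between the groups, and both were led by Acinetobacter. The families that contributed most to the distances between groups were Moraxellaceae (15.8%), Enterobacteriaceae (14.9%), Planococcaceae (14.2%), Staphylococcaceae (12.7%) and S24-7 (9.84%). The first 4 of these were families whose sums did not pass between the groups.

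**Figure D5:**
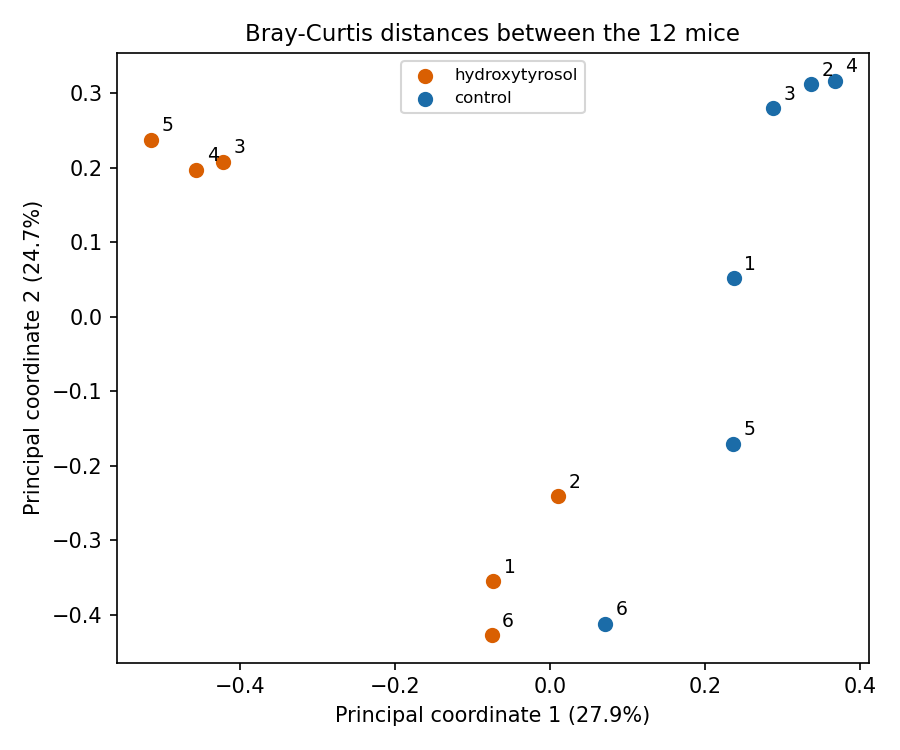
The 12 mice are placed by principal coordinates of their Bray-Curtis distances at even depth, with axes of 27.9% and 24.7% and the replicate number beside each point. The group means lie at -0.256 (hydroxytyrosol) and 0.256 (control) on the first axis, and hydroxytyrosol mouse 2 lies nearest to the control side.

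At phylum level the differences were few. Verrucomicrobia held 1.42% ± 1.26 in hydroxytyrosol mice and no count in control mice (exact permutation p = 0.00216, the smallest the design allows, adjusted over 6 values p = 0.0130, n = 6 a group). Bacteroidetes held 1.22% to 3.97% (median 1.56%) and 0.580% to 39.9% (median 23.6%), with means of 2.09% ± 1.11 and 21.6% ± 19.3 (exact permutation p = 0.0455, adjusted p = 0.0909). The unadjusted p rose above 0.05 when any hydroxytyrosol mouse or control mouse 2, 3, 4 or 5 was left out (0.0606 to 0.0909). It was 0.0159 (exact, 5 against 4 mice, the smallest that test allows) without the 3 Acinetobacter-led mice, which include the control mice lowest in S24-7. The log2 ratio of Firmicutes to Bacteroidetes was 4.74 ± 1.29 and 1.999 ± 1.82 (exact permutation p = 0.0173, adjusted p = 0.0519, n = 6 a group). Firmicutes held 58.8% ± 30.8 and 42.2% ± 17.2 (exact permutation p = 0.266), Proteobacteria 34.6% ± 32.9 and 34.5% ± 35.7 (p = 0.998) and Actinobacteria 2.71% ± 1.78 and 1.25% ± 0.606 (p = 0.0693).

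Values of the model mice, which shared the diet but not the compound, are set beside these results. The comparisons share mice and so are not independent. Collinsella had 6 counts in 1 model mouse and none in the other 5, and it passed between hydroxytyrosol and model mice (adjusted p = 0.00511). Butyricimonas (adjusted p = 0.0484) and Atopostipes (adjusted p = 0.0242) also passed there, at mean model shares of 0.00133% and 0.000332%. Akkermansia was in all 6 model mice at 0.00307% to 5.36% (median 0.128%), and passed between model and control mice (adjusted p = 0.000484) but not between hydroxytyrosol and model mice (adjusted p = 0.773). Jeotgalicoccus (4.32% ± 3.71), [Ruminococcus] (2.53% ± 5.55) and unidentified Desulfovibrionaceae (3.49% ± 6.67) passed between model and control mice as well, with adjusted p-values of 0.0368, 0.0298 and 0.0347. Model mouse 6 held 13.8% [Ruminococcus] and 16.8% unidentified Desulfovibrionaceae, and without it the model means were 0.266% and 0.829%. The model median of unidentified Desulfovibrionaceae, 0.123%, lay next to the control median of 0.119%, and that of [Ruminococcus] was 0.245%. S24-7 held 0.252% ± 0.228 in model mice and was lower there than in control mice (adjusted p = 0.0114 at genus level), and the hydroxytyrosol and model groups did not separate (adjusted p = 0.339). Rikenella and Prevotella were lower in model than in control mice too (adjusted p = 0.00224 and 0.0107), and unclassified Helicobacteraceae had no count in model mice. Clostridium of the Erysipelotrichaceae held 0.175% ± 0.200 in model mice and passed in neither comparison with them (adjusted p = 0.152 and 0.0801). Subdoligranulum, at 0.00168% ± 0.00260, came short of the threshold against hydroxytyrosol mice (adjusted p = 0.0683). Shannon index and observed ASVs were 5.17 ± 0.620 and 788 ± 175 in model mice, between the other 2 groups, with exact permutation p-values of 0.102 and 0.0671 against hydroxytyrosol mice (n = 6 a group). Chao1 was 713 ± 180 in hydroxytyrosol and 962 ± 226 in model mice (exact permutation p = 0.0476, unadjusted, n = 6 a group).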

How the data were processed

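Feces of 30 mice were sequenced for the 16S rRNA gene, and 6 hydroxytyrosol and 6 control mice were compared here. Groups and mouse numbers were taken from sample titles and labels. The numbers of hydroxytyrosol mice differ from those of the table columns. The study's methods state that reads were merged (FLASH), quality-filtered (QIIME) and cleared of chimeras (UCHIME). The authors deposited raw counts per sequence with a taxon for each. cutadapt is named in the submitters' processing notes. Replicates were not pooled and the counts were not normalized. The deposited read log lists another order, with filtering, denoising and merging, then removal of chimeras and of singletons. The taxonomy version is not given in the sources used here. Of the 12 mice's filtered counts 21.3% carried no named genus, and these were summed under the lowest named rank. No 2 mice of a group had identical counts.

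Filtered counts summed per family or genus, or per ASV, were tested with edgeR 4.0.16 (quasi-likelihood, TMM, features that reached 10 counts in 4 or more of 12 mice, Benjamini-Hochberg over all features tested) in R 4.3.3. Diversity, distances and phylum shares were tested by exact permutation over the 924 assignments of 12 mice, two-sided, with a smallest p of 0.0022. Shannon is in base 2, and 1 count was added to each side of the Firmicutes-to-Bacteroidetes ratio. A count of 0 was given a floor of 3 counts per mouse for "at least" folds. Taxa with 1 to 3 counts in a group were given a ratio with a 95% counting interval. Reads carry no molecular identifiers, so these cover counting error only. P-values take mice as the replicates. Yet without the filter edgeR gave most ASVs an unadjusted p under 0.05, though at even depth 5158 of 6726 ASVs were in exactly 1 mouse. For taxa with no count in 1 group, edgeR p-values are therefore a weak measure of the spread between mice.

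Taxa named are the 5 phyla the study names, all families called, the 10 genera with the largest rise and the 10 with the largest fall, the 10 ASVs with the largest mean share, the 5 with the largest rise and the 5 with the largest fall, and 2 to 4 members of each taxon list. Others were chosen after their values were seen. The members, lists and comparison were chosen with earlier results of these data known. Lists of taxa were written from general knowledge, and 1 from the study's text, whose 12 tested genera had 4 higher and 1 lower and is not independent evidence. Alternatives were other scalings, DESeq2 1.42.0, centred log-ratios (0.5 counts added) with limma 3.58.1, other filters, the unfiltered and even-depth tables, all 30 mice in 1 model, totals without Acinetobacter, the replicate block and leaving out each mouse. Leaving out S24-7 and Moraxellaceae, leaving out 3 mice, and fitting only features measured in both groups were added after seeing the data. The model fits and permutation tests were tested on simulated data.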

Additional observations from a re-analysis of the deposited data

Results flagged for a closer look

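In 38 of 126 groups of 6 values, 1 mouse stood apart from the other 5, where chance gives about 1 in 20 for independent, normally distributed values. Shares are skewed, hold zeros and include a genus beside its ASVs, so that rate does not hold for them. Hydroxytyrosol mouse 2 had 881 observed ASVs with the next mouse at 610, and it stood apart in Kurthia (10.3% of counts), unidentified Planococcaceae (0.064%), unidentified Veillonellaceae (0.00417%) and ASV_45355 (3.97%). Hydroxytyrosol mouse 3 stood apart in Clostridium of the Erysipelotrichaceae (12.1%), [Eubacterium] (6.75%), its variant ASV_90254 (6.59%), Eubacteriaceae (0.516%), Pseudoramibacter Eubacterium (0.432%), ASV_73525 of Lactobacillus (1.2%) and ASV_75238 of Aerococcus (8.99%). Hydroxytyrosol mouse 4 did so in Sporosarcina (43.1%), its variant ASV_15844 (34.1%), Bacillaceae (1.24%) and Christensenellaceae (0.0454%), and hydroxytyrosol mouse 5 in Atopostipes (8.15%) and unidentified Coriobacteriaceae (0.00354%).

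Among control mice, mouse 5 was the highest in several taxa that were higher in hydroxytyrosol mice. They were Enterococcaceae (1.69%), Enterococcus (1.59%), unclassified Enterococcaceae (0.0675%), Bacillaceae (0.396%), unclassified Lactobacillales (0.338%), Clostridium of the Erysipelotrichaceae (0.0378%), Eubacteriaceae (0.0108%), Pseudoramibacter Eubacterium (0.00405%) and Subdoligranulum (0.00135%), the last from 1 count. Enterococcus did not pass the threshold between the groups. Control mouse 6 stood apart in ASV_14106 of Acinetobacter lwoffii (24.5%), Jeotgalicoccus (0.375%), ASV_48019 of that genus (0.224%), [Ruminococcus] (0.17%) and Collinsella (0.00359%). Control mouse 1 held most of the counts of ASV_61181 (4.38%), ASV_30283 (3.7%) and ASV_11103 (3.03%). Control mouse 3 stood apart in Lactobacillus (36.2%) and ASV_73525 (27.4%), and control mouse 2 in unidentified Planococcaceae (2.32%). What these mice shared was not tested.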

How the results depend on the processing

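The number of families past the threshold was 13, and it was 20 in DESeq2, 0 among families measured in both groups and 6 to 19 when 1 mouse was left out. The 28 genera became 52 without the filter on low counts, 16 with a minimum of 50 counts, 6 among genera measured in both groups and 21 to 43 with 1 mouse left out. The 168 ASVs became 1 without the filter (of 7702 tested, with 4832 at an unadjusted p under 0.05), 52 with a minimum of 50 counts, 1 among ASVs measured in both groups and 91 to 178 with 1 mouse left out. Of 46 called taxa followed through the settings, 22 passed in every setting that tested them and none reversed. Many of these taxa had no count in 1 group and could not reverse, so the lack of reversals is no measure of their stability. The others lost the threshold 31 times when a mouse was left out, against 481 fits in which a taxon passed, and 47 times under other settings, against 475. All 11 called ASVs followed lost it without the filter. DESeq2 gave 11 families (7 in edgeR) and 13 genera (5) between hydroxytyrosol and model mice, and 16 families (10) and 38 genera (17) between model and control mice. The median log2 fold change of all genera was -0.30 with TMM and -0.11 without it, and that of ASVs -2.01 and -1.82.

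At genus level the differences were -0.0376 (Shannon), -0.0590 (Simpson), 15.0 (Chao1), 13.7 (observed genera), -0.0172 (Pielou) and -8.38e-05 (Good's coverage). Without S24-7 they were -0.0808 (Simpson), -186 (Chao1), -190 (observed ASVs) and 0.00136 (Good's coverage), and without Moraxellaceae too -0.857 (Shannon), -0.0750 (Simpson), -43.5 (Chao1), -69.5 (observed ASVs), -0.0855 (Pielou) and 0.00122 (Good's coverage), none past the threshold. These families were chosen for their differences in these data, and depth was not evened again without them. The difference in spread around the centroid, 0.00709, turned to -0.00937 with Jaccard distances and -0.0316 with square-root shares, and ran from -0.0230 to 0.0455 with 1 mouse left out. Proteobacteria ran from -8.04 to 9.87 percentage points and Actinobacteria from 0.835 to 1.79, the latter past the threshold without hydroxytyrosol mouse 2 or 6. Bacteroidetes ran from -23.7 to -15.8, and missed the threshold on log10 shares (-0.705, exact p = 0.0671). The causes were not tested.

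Mice with the same number correlated at -0.31 to 0.37 in their deviations from the group means, so the numbers do not pair the mice. Fits and permutations that use the numbers are therefore printed for completeness and do not measure how stable a call is. With the replicate block 10 families, 29 genera and 161 ASVs passed, and 7 followed taxa lost the threshold, namely the families S24-7 (adjusted p = 0.349), unclassified Lactobacillales (0.349), Bacillaceae (0.264), Helicobacteraceae (0.166) and Clostridiaceae (0.0788) and the genera Ruminococcus (0.206) and Clostridium of the Clostridiaceae (0.0927). Permuted within numbers, the Simpson difference of -0.113 (p = 0.0625), Bacteroidetes (-19.5, p = 0.0938) and the log2 ratio of Firmicutes to Bacteroidetes (2.74, p = 0.0938) missed the threshold, all by exact tests. Actinobacteria (1.45, exact p = 0.0312, the smallest that permuting within numbers allows) passed. At these depths a count of 0 allows a share of up to 0.00296% to 0.00717% of a mouse's counts (3 counts).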
